A study of Mus musculus with 8 samples.

Results

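B cells were found as a minor population among endothelial cells sorted from mouse hearts. Members were chosen by measured counts. A cell was taken when at least 2 of Cd79a, Cd79b, Ighm and Ms4a1 had a unique molecular identifier (UMI, 1 counted transcript), at least 1 UMI lay on Cd79a or Cd79b, and neither C1qa (macrophages) nor S100a8 (neutrophils) had any. Of 28671 cells, 86 met this rule, 25 in healthy and 61 in infarcted hearts.

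The hearts came from adult heterozygous Pdgfb-iCreERT2-R26R-Brainbow2.1 mice, in which tamoxifen switches on a fluorescent Confetti reporter in cells that express Pdgfb, a gene of the endothelium. All 8 mice received 150 mg/kg tamoxifen 21 days before harvest. The 4 MI mice (244, 250, 255 and 256) also had their left anterior descending artery tied permanently 14 days after tamoxifen, which is 7 days before harvest, and the 4 healthy mice (227, 228, 239 and 240) serve as controls. Cells were sorted as CD31+, Confetti+ and podoplanin-, and 1 10X Chromium library was made from the ventricles of each mouse. The gate was set for endothelium, so B cells in it do not stand for all B cells of the heart.

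B cells recognise antigen through a receptor made of an immunoglobulin heavy chain, a kappa or lambda light chain, and the signalling pair CD79A and CD79B. Mature naive B cells carry IgM and IgD of the same specificity, while B1 and marginal zone B cells carry much IgM and little IgD or CD23, the product of Fcer2a. Plasma cells secrete antibody with the help of the J chain and lose most surface receptor. B cells also present antigen on MHC class II.

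The libraries held 6764977 to 8793655 UMIs in healthy and 15865234 to 27244947 in MI mice. Healthy 228 shared 2041 barcodes with Healthy 239, and Healthy 227 shared 316 with Healthy 228. These copied cells were dropped from the first-named mouse of each pair. Of 17 cells of Healthy 228 that met the rule, 12 were dropped in this way. The barcodes of 10 of these were also members in Healthy 239, which holds 11 members, so nearly all B cells of Healthy 239 have a barcode in both libraries. The counts were not identical. Each of the 12 barcodes had more UMIs in Healthy 239 (47433 against 19758 in sum). They held 42.3 H2-Eb1 UMIs per 100 H2-Aa UMIs in Healthy 228 and 39.0 in Healthy 239, against 4.60 in the light-chain-positive cells kept for Healthy 228. Without every shared barcode, Healthy 239 would keep 1 member. After the drop no member barcode was a member in another mouse. MI cells were also deeper, with a median of 4024 UMIs against 2122 in healthy cells that met no leukocyte rule.

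The rule did not use the light chains, and these showed that the members were of 3 kinds. Of the 86 members, 72 had 2 or more UMIs of Igkc, Iglc1, Iglc2 or Iglc3, the constant parts of the kappa and lambda chains. The other 14 had at most 1, and went against the label. Each of the 14 had a single Cd79 UMI and exactly 2 of the 4 rule genes. Among them, 8 held at least 3 UMIs of macrophage genes, 2 held at least 2 UMIs of T cell genes, and 5 had at least 1% of their UMIs on 13 endothelial genes. They were unevenly spread, with 1 in the healthy and 13 in the MI mice. In the cells that met no leukocyte rule, Cd79a had a UMI in 0.173% of healthy and 0.692% of MI cells, and Igkc in 2.76% and 12.8%.

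**Figure D1:**
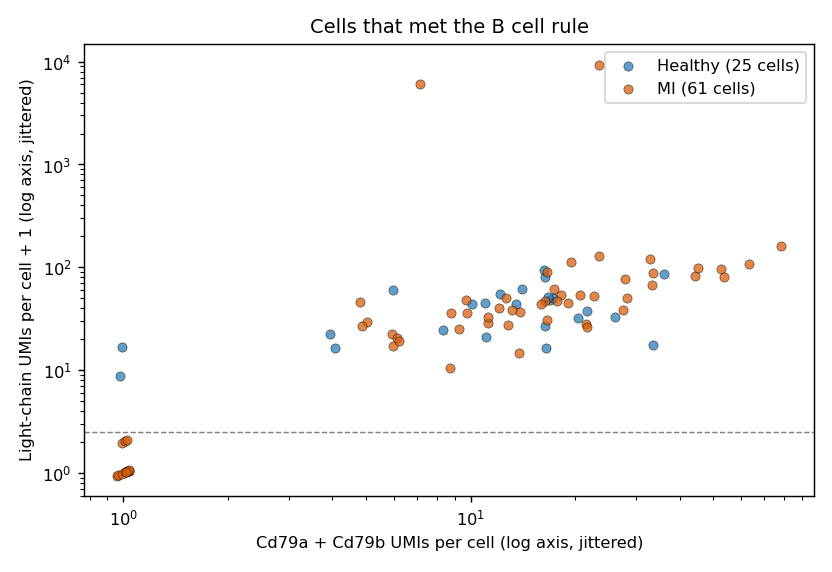
Each point is 1 of the 86 members, with the sum of its Cd79a and Cd79b UMIs on the x axis and its light-chain UMIs plus 1 on the y axis (both log axes, with points jittered). The 14 cells below the dashed line have at most 1 light-chain UMI, and the 2 Jchain-high cells lie at the top.

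The edge of the rule was as follows. Of 15 members with exactly 2 of the 4 genes, 1 had light-chain UMIs above the limit. Just outside, 117 cells had a Cd79 gene but none of the other 3 rule genes, and 2 of them passed the light-chain limit. A further 123 cells were left out for C1qa or S100a8 alone, and 23 of these passed it.

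Of the 72 light-chain-positive members, 2 were set apart by Jchain, the joining chain of secreted IgM and IgA. A cell of MI 250 held 970 Jchain, 9691 Igkc and 2967 Ighm UMIs, and a cell of MI 255 held 513, 5848 and 2160. Immunoglobulin and Jchain UMIs made up 62.1% and 56.9% of all UMIs in these cells. They also held 58 and 59 UMIs of Mzb1 and 34 and 21 of Txndc5, which both help antibody folding, and no Ighd or Fcer2a. The remaining 70 cells, 24 healthy and 46 MI, are called the light-chain-positive cells below. Only 1 of them had a Jchain UMI.

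Within the 70 cells the receptor genes were almost uniform, as the rule partly ensured. Cd79a and Cd79b each had a UMI in 68 cells, Ighm in 69 and Ms4a1, which encodes CD20, in 59. B lineage genes outside the rule were found in varying numbers of cells. Ebf1, a transcription factor of the B lineage, was found in 66 cells at 992 CPM, the gene's UMIs scaled to a common total per set of cells (exact 95% Poisson interval 883 to 1110, which, as elsewhere here, covers counting error only), against 299.9 CPM in cells that met no leukocyte rule. Pax5, which holds B cells to their fate, was found in 14 cells. None of the 8 genes of T and NK cells had a UMI, which 3 UMIs would put at up to 9.85 CPM. Among the macrophage genes outside the rule, Csf1r had no UMI, and Lyz2 had one in 25 cells, at 158 CPM against 438 CPM in cells that met no leukocyte rule. C1qb had a UMI in 7 cells, all from MI mice. Where gene levels are set against C1q macrophages, these are the 808 with under 1% endothelial UMIs, a limit set after the data were seen.

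The 20 genes with the highest ratio to cells that met no leukocyte rule were led by Igkc, Ighm, Cd79a and Cd79b over all members. The 2 Jchain-high cells hold most Igkc and Ighm UMIs, and over the 70 light-chain-positive cells Cd79a ranked 1, Ighm 2 and Igkc 5, with 19 of the 20 genes shared. Since the rule chose the cells, this is a description. Beside the immunoglobulin genes they held Ly6d, a surface protein of the lymphoid lineage, Cd74, H2-Aa and H2-DMb2 of the class II pathway, Ltb, a cytokine of lymphoid tissue, and Bank1, an adaptor of the B cell receptor. Ly6d stood at 1356 CPM in the light-chain-positive cells and 1.55 CPM in cells that met no leukocyte rule. Napsa, an aspartic protease, stood at 765 against 5.21 CPM.

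Cd79a lies at chr7:24897381-24902197 on the plus strand and Cd79b at chr11:106311341-106314762 on the minus strand of GRCm38. Of the 20 leading genes, 7 had an entry among the RefSeq promoters (GRCm38.p6, 250 bases before to 50 after a start site). The promoter of Cd79a is shown because this gene defines the members. That of Cd22 is shown because its level in the light-chain-positive cells was higher in all MI mice, as described below. Capitals mark matches on either strand to an ETS motif (AGGAAGTG), an E box (CAGGTG) or the EBF palindrome (TCCC and GGGA with any 2 bases between them), letters that were chosen after the sequences had been read.
Cd79a, chr7:24897247-24897546, plus strand: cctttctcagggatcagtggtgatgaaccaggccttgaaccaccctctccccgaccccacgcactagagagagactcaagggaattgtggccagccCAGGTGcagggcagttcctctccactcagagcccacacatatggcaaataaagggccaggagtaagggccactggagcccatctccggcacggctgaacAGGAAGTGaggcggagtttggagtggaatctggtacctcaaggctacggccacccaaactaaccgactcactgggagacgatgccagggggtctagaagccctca
Cd22, chr7:30878979-30879278, minus strand: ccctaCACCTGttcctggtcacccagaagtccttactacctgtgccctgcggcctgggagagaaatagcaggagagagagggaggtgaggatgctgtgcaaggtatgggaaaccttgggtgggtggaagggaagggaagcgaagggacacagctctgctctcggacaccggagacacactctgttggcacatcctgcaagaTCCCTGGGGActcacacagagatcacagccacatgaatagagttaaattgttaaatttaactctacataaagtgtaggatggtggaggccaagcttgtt
The Cd79a window held 1 ETS match and 1 E box, and the Cd22 window 1 EBF match and 1 E box. Over all 32851 promoters, the ETS letters occurred in 4.07%, the E box in 20.2% and the EBF letters in 0.904%. The octamer ATTTGCAT, searched in the same way, was in neither window and in 1.74% of promoters. Among the 8 promoters of the 7 leading genes, the E box was in those of Bank1, Cd37, Cd79a and Ltb, and the ETS letters in that of Cd79a alone. Such matches are descriptions of the letters and not binding sites.

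Each B cell usually makes either kappa or lambda protein. Here 63 of the 70 cells had most of their light-chain UMIs on Igkc (chr6:70726435-70726966), and 7 had most on the lambda genes of chromosome 16. The 7 lambda cells were 4 healthy and 3 MI cells, and 5 of them had no Igkc UMI at all. The reverse was not seen. All 63 kappa cells held lambda UMIs, with a median of 7 (range 1 to 41) beside a median of 33 Igkc UMIs, so that lambda made up a median of 15.9% of their light-chain UMIs.

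The lambda genes differed in this respect. Iglc2 stood at 986 CPM (871 to 1112) in kappa cells and 5467 CPM (4717 to 6302) in lambda cells. Iglc1 stood at 448 CPM (372 to 536) and 3654 CPM (3046 to 4348). Iglc3 was at 623 CPM (532 to 724) in kappa and 662 CPM (419 to 993) in lambda cells, intervals that overlap. In the cells that met no leukocyte rule the 3 genes stood at 1.26 (Iglc1), 1.33 (Iglc2) and 0.618 CPM (Iglc3), against 109 CPM for Igkc. That Igkc value was carried by 2 mice, Healthy 239 at 416 and MI 255 at 311 CPM, while the other 6 mice lay between 0.517 and 60.02 CPM. The lambda genes resemble each other in sequence, so UMIs may be split between them, and how the counting treated such reads was not tested.

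**Figure D2:**
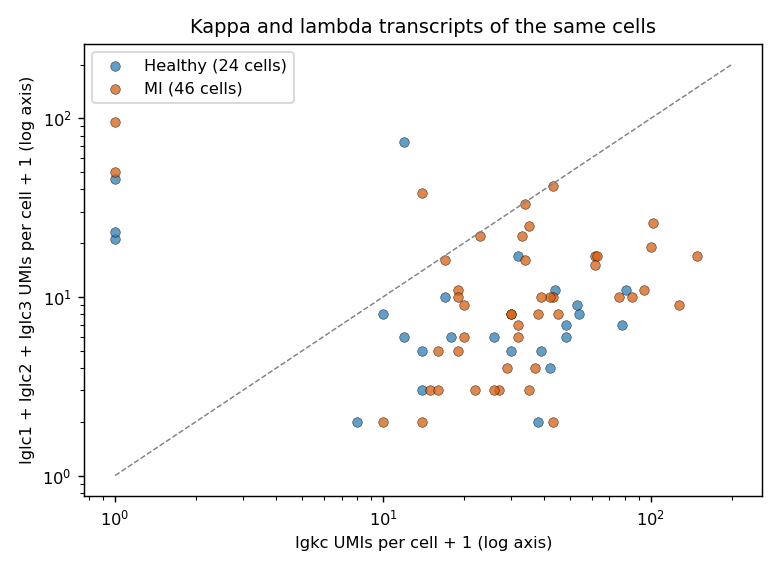
Igkc UMIs (x axis) and the summed UMIs of Iglc1, Iglc2 and Iglc3 (y axis), each plus 1 on a log axis, in the 70 light-chain-positive cells. The dashed line marks equal values. The 63 kappa cells below it all lie above 1 on the y axis, and 5 of the 7 lambda cells sit at the left edge with no Igkc UMI.

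The first comparison asked whether the share of B cells differed after infarction. The rule gave 6, 5, 11 and 3 members in Healthy 227, 228, 239 and 240, and 31, 10, 16 and 4 in MI 244, 250, 255 and 256. Their shares of sorted cells were 0.247%, 0.307%, 0.289% and 0.0921% in the healthy mice, and 0.676%, 0.196%, 0.375% and 0.112% in the MI mice. The groups overlapped, with MI 244 above all others and MI 250 and MI 256 among the lowest 3. The means were 0.234% ± 0.0977 (SD, n = 4) in healthy and 0.339% ± 0.249 (SD, n = 4) in MI mice, a difference of 0.106 percentage points that did not exceed the spread between mice (p = 0.543 by two-sided exact permutation). With MI 244 left out it turned to -0.00621 points (exact p = 0.971). Limited to members with at least 2 light-chain UMIs, which leaves out the 14 that went against the label, the shares were 0.226% and 0.267%, a difference of 0.0410 points (exact p = 0.714). When cells with C1qa or S100a8 UMIs were admitted, 209 cells met the rule and the difference grew to 0.718 points. All MI mice then lay above all healthy mice (exact p = 0.0286, the smallest that 4 against 4 mice allow). Adjusted over the 2 shares this exact p was also 0.0286, and the share among leukocytes in that setting is not given.

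Among leukocytes the picture differed. Leukocytes were counted by rules for B cells, C1q macrophages, neutrophils and T cells. B cells made up 31.6%, 55.6%, 15.5% and 9.68% of them in Healthy 227, 228, 239 and 240, and 4.82%, 1.81%, 1.95% and 1.89% in MI 244, 250, 255 and 256. Every healthy mouse lay above every MI mouse. The means were 28.1% ± 20.5 (SD, n = 4) and 2.62% ± 1.47 (SD, n = 4), with an exact permutation p of 0.0286 and, adjusted over the 2 shares tested, 0.0571. This misses 0.05, but 0.0286 is the smallest p that 4 against 4 mice allow, so beside the p of the other share no difference of any size could have passed.

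The healthy shares rest on 9 to 71 leukocytes per mouse and the MI shares on 212 to 820. C1q macrophages were 0.728% ± 0.561 of healthy and 12.02% ± 5.46 of MI cells (SD, n = 4 each), and these enter the denominator. The macrophage rule also took in cells with much endothelial RNA, since 63.9% of 2239 such cells had at least 1% of their UMIs on endothelial genes. With every leukocyte class limited to cells under 1%, the B cell shares averaged 31.5% and 5.72% (exact p = 0.0571, adjusted 0.114). The groups then overlapped, with MI 244 at 12.9% above Healthy 240 at 10%.

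**Figure D3:**
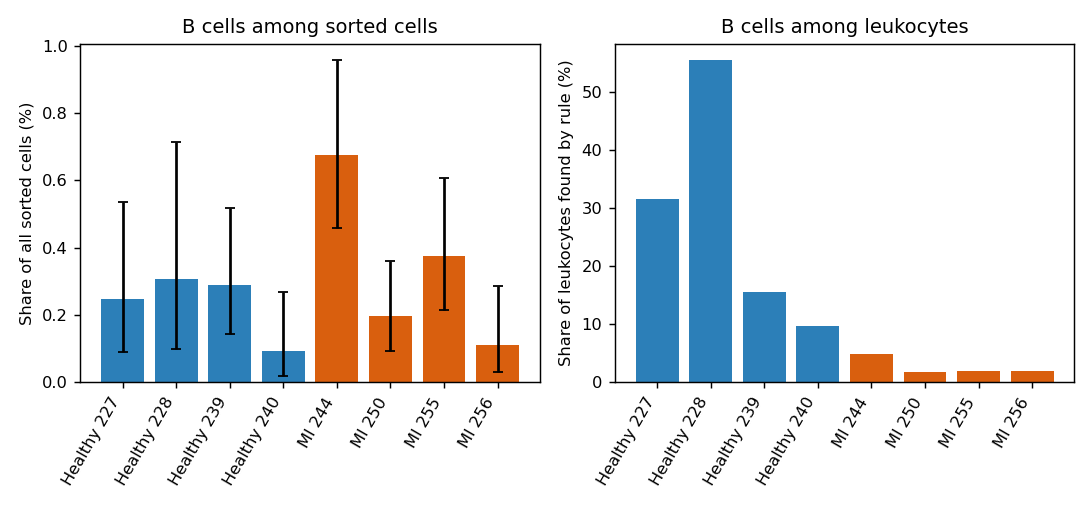
Share of B cells among all sorted cells (left, with exact 95% binomial intervals, which cover counting error only) and among leukocytes found by rule (right) in each mouse, in percent. The groups overlap on the left. On the right all healthy mice, from 9.68% to 55.6%, lie above all MI mice, from 1.81% to 4.82%.

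The second comparison was of gene levels between healthy and MI B cells. Only Healthy 239 among the healthy mice had 10 or more members, under the 2 such mice a group set for a test, so counts were pooled by group and no test is the main result. Of 1147 genes with at least 50 UMIs outside the rule, 35 (3.05%) were at least 3-fold higher and 29 (2.53%) at least 3-fold lower in MI members, 5.58% in all. Single cells held much of several of these differences. Jchain was at least 121-fold higher (0 UMIs in healthy, 1484 in MI members, set against 3 UMIs over the healthy group), and 970 of its UMIs lay in a single cell. Igkc was 6.10-fold higher in all MI members and 0.911 times the healthy level in the light-chain-positive cells. In the cells that met no leukocyte rule both went the other way, with Jchain at 0.341 and Igkc at 0.796 times the healthy level. Lrg1 was 19.6-fold higher, with 57 of 80 UMIs in a single cell, and Apoe, an apolipoprotein of macrophages among others, 14.0-fold higher, with 629 of 1596. In the light-chain-positive cells these ratios were 4.17 and 2.97. They were larger in the cells that met no leukocyte rule, at 44.8 for Lrg1 and 4.07 for Apoe. The platelet genes Ppbp and Pf4 were lower in MI, and Ppbp had 141 of its 170 healthy UMIs in a single cell. In the light-chain-positive cells 14 genes (1.77%) were past 3-fold higher and 15 (1.9%) lower, 3.68% of 789 genes, and 7 and 10 of these were past 3-fold in both sets.

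These genes, listed by being past 3-fold in both sets, were as follows. Higher in MI were S100a6, a calcium-binding protein, Cd34, Lgals1, Fabp5, Impdh2, Cd22 and Fscn1. Lower were H2-Eb1, Wdr89, Ywhah, Ctla2a, Ppbp, Pf4, 1810058I24Rik, Gm9844, Gm10263 and Rpl27-ps3. The last and other pseudogenes share sequence with their parent genes, so their counts are uncertain. Several of these differences lay in 1 cell. When the light-chain-positive cell with the most UMIs of each gene was left out, an alternative added after the values were seen, 5 of the 7 higher and 7 of the 10 lower genes were still past 3-fold. Ctla2a had 70 of its 95 healthy UMIs in a cell of Healthy 227, and its ratio of 0.179 became 0.640 without it. The ratio of Ywhah went from 0.302 to 0.525 and that of 1810058I24Rik from 0.144 to 0.347, each without a cell of Healthy 227. Fabp5 went from 3.35 to 2.59 and Fscn1 from 3.20 to 2.29, each without a cell of MI 255. Ppbp and Pf4 were still past 3-fold, but 2 healthy cells with 191 and 53 platelet UMIs hold nearly all platelet UMIs of the healthy light-chain-positive cells.

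An edgeR quasi-likelihood test over all 8 mice was added after the cell numbers were known, and called 20 of 354 genes (5.65%; 3 or 0.847% higher and 17 or 4.8% lower in MI, Benjamini-Hochberg adjusted p of 0.05 or less). It had low replication, and its calls were not stable. Under 14 other settings it called 0 to 53 genes. With Healthy 227, Healthy 239, MI 244 or MI 255 left out, edgeR called 0 genes (64, 64, 85 and 68 at an unadjusted p under 0.05), and with Healthy 228 or MI 250 left out, 1. In the light-chain-positive cells it called 1 gene, Wdr89. No gene is put forward from it, and its values are given only beside the pooled ones.

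Groups were also compared mouse by mouse. Among 2153 genes with at least 20 UMIs in the light-chain-positive cells, 61 (2.83%) were lower in all 4 MI mice than in all 4 healthy mice and 80 (3.72%) were higher, 6.55% in all. Over all members the shares were 3.59% lower, 3.32% higher and 6.91% in all, of 2980 genes. Of 60 such genes from 8 lists of B cell genes, 6 were lower (among them Cd72, Ebf1, Mef2c, Itga4 and Fcer2a) and 1 was higher (Cd22). The 8 lists cover the receptor, its signalling, transcription factors, class II presentation, homing and survival, and follicular, marginal zone and B1 cells. No gene of the signalling list (9 counted) or of the class II list (10 counted) separated the groups in this way.

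The clearest of the follicular genes was Fcer2a (CD23, a low-affinity IgE receptor, at chr8:3681737-3694175). It stood at 408, 681, 367 and 541 CPM in Healthy 227, 228, 239 and 240, and at 40.6, 171, 16.8 and 70.02 CPM in MI 244, 250, 255 and 256. Each healthy mouse was above each MI mouse, although the MI cells were deeper. This order was not stable. The value of Healthy 240 rests on 4 UMIs in 1 cell, which had 1.38% endothelial UMIs. Without cells of 1% or more, Healthy 240 would hold no Fcer2a UMI, while a cell of MI 250 with 3 UMIs would stay. With the shared barcodes taken out of Healthy 239 instead, that mouse kept 1 light-chain-positive cell, with 0 Fcer2a and 0 Ighd UMIs. That cell held only 879 UMIs, so a count of 0 in it says little about the level. A UMI was found in 18 of 24 healthy and 9 of 46 MI cells, and in 11 of 23 and 2 of 46 after each cell was thinned to 1000 UMIs. Cells that met no leukocyte rule held one in 0.146% (healthy) and 0.131% (MI) of cases. These values rest on 35 and 12 UMIs. The added edgeR fit on these cells gave a log2 fold change of -2.90 ± 0.61 (SE) and an adjusted p of 0.0569.

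Ighd, which encodes the heavy chain of IgD (chr12:113406604-113416324), followed in part. Its levels were 781, 1277, 734 and 1488 CPM in the healthy mice and 292, 650, 101 and 910 CPM in MI 244, 250, 255 and 256. MI 256 lay within the healthy range, so the groups overlapped in these cells. Over all members they did not, with 734 to 1277 CPM in healthy and 66.3 to 541 CPM in MI mice. This order would not hold without cells of 1% or more endothelial UMIs. In MI 256 the 2 members under this limit held 6 and 2 Ighd UMIs among 3004 and 2262 UMIs. A UMI was found in 22 of 24 healthy and 28 of 46 MI cells, and in 14 of 23 and 13 of 46 after thinning. In the added edgeR fit the log2 fold change over all members was -1.64 ± 0.54 (SE), with an adjusted p of 0.126. Without cells of 1% or more endothelial UMIs it was -1.10, with an adjusted p of 0.569. Over the light-chain-positive cells it was -1.18 ± 0.59 (SE), with an adjusted p of 0.361.

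Ighm, a rule gene, went the other way in part. It stood at 1631, 4342, 3501 and 3516 CPM in the healthy mice and 4881, 1881, 4649 and 1120 CPM in the MI mice, so MI 244 and MI 255 were highest and MI 256 lowest. The number of Ighm UMIs per Ighd UMI was 2.09, 3.40, 4.77 and 2.36 in the healthy mice, 16.7 in MI 244 and 46.0 in MI 255, but 2.89 in MI 250 and 1.23 in MI 256. Cells with Ighm and no Ighd UMI numbered 9 in MI 244, 8 in MI 255 and 2 in Healthy 239, and 0 in the other 5 mice.

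Cd22, an inhibitory receptor that dampens B cell receptor signals, was higher in MI in the light-chain-positive cells. It stood at 34.0, 0, 100.03 and 0 CPM in the healthy mice and 260, 103, 286 and 140 CPM in the MI mice. The margin was thin, since Healthy 239 lay just under MI 250, and the healthy values rest on 4 UMIs in all. Over all members the groups overlapped, with MI 250 at 47.8 and MI 256 at 83.2 CPM, under Healthy 239 at 100.03 CPM. After thinning, a UMI was found in 4 of 23 healthy and 11 of 46 MI cells, a smaller gap than the 4 of 24 and 26 of 46 before it. Cd22 was also higher in MI outside the B cells. In cells that met no leukocyte rule Cd22 was 2.81 times the healthy level (6 UMIs in healthy and 47 in MI cells), and in C1q macrophages it had 0 UMIs in healthy and 61 in MI cells.

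Of 12 transcription factors of the B cell lists with at least 20 UMIs, Ebf1 and Mef2c were lower in all MI mice. None was higher in all MI mice, and the other factors did not separate the groups. The values of Healthy 240 rest on 2 cells. Ebf1 ranged from 1359 to 2570 CPM in healthy and from 539 to 980 CPM in MI mice. Mef2c ranged from 800 to 1447 CPM in healthy and from 236 to 650 CPM in MI mice. The added edgeR fit on these cells called neither gene. It gave log2 fold changes of -1.12 ± 0.29 (SE, adjusted p 0.0800) for Ebf1 and -1.42 ± 0.39 (SE, adjusted p 0.0852) for Mef2c. Over all members without cells of 1% or more endothelial UMIs, Ebf1 was at -1.39 in the edgeR fit, with an adjusted p of 0.154. Both genes were also somewhat lower in MI among the cells that met no leukocyte rule, at 0.716 and 0.806 times the healthy level, against 0.466 and 0.339 times in the light-chain-positive cells. Some differences had about the same size in both kinds of cell. Wdr89 was at 0.294 times the healthy level in the light-chain-positive cells and 0.351 times in the other cells. H2-D1, an MHC class I chain, was at 1.58 and 1.45 times.

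**Figure D4:**
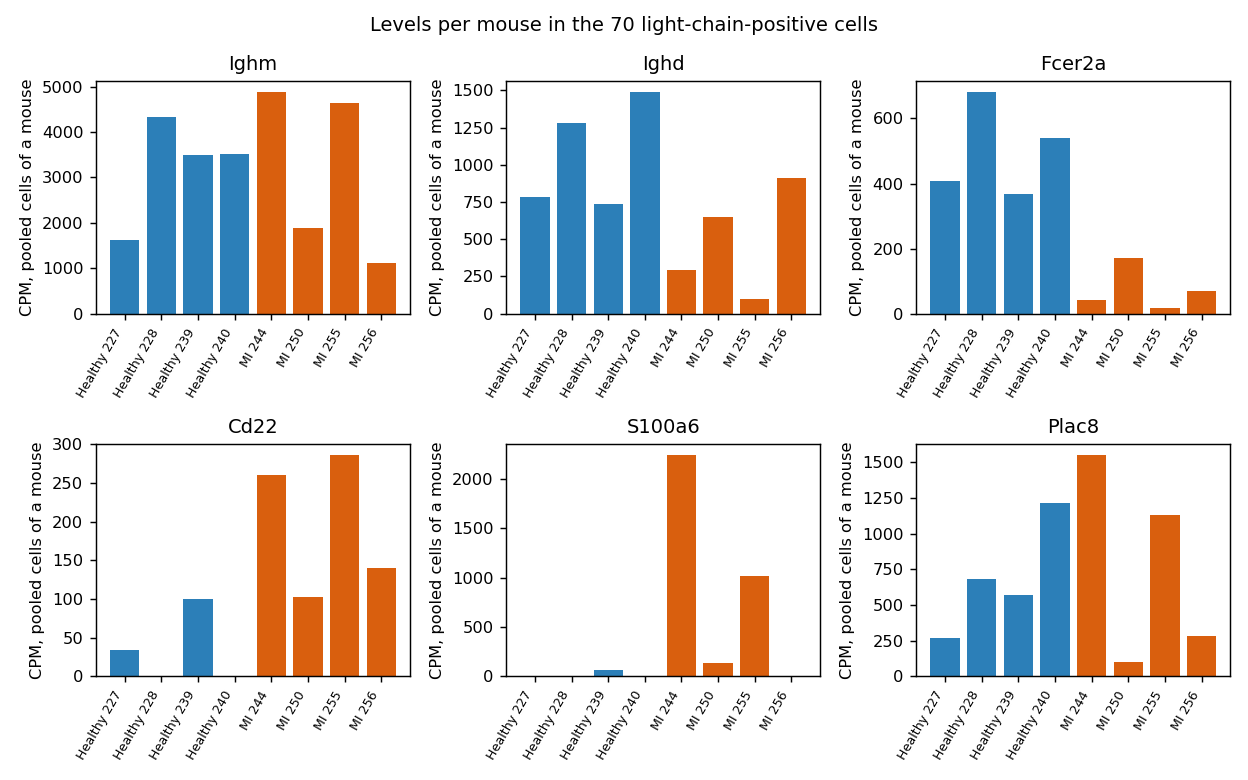
CPM of 6 genes in the pooled light-chain-positive cells of each mouse (blue, healthy; orange, MI; 2 to 24 cells a mouse). Fcer2a is lower and Cd22 higher in all MI mice, while S100a6 is high in MI 244 and MI 255. The Fcer2a value of Healthy 240 rests on 1 cell with 1.38% endothelial UMIs. Over all members the Cd22 ranges of the groups overlapped.

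S100a6 and Plac8 were not uniform among the MI mice. S100a6 stood at 0, 0, 66.7 and 0 CPM in the healthy mice and 2242, 137, 1011 and 0 CPM in MI 244, 250, 255 and 256. Plac8, a gene of lymphoid and myeloid cells, was highest in MI 244 at 1551 CPM and was 1129 CPM in MI 255, but Healthy 240 lay at 1217 CPM. Within the 70 cells, 17 had at least 5 S100a6 UMIs, a limit chosen after the values were seen, and 12 of these were from MI 244 and 5 from MI 255. None of the 17 had a Fcer2a UMI, while 24 of the 44 cells without S100a6 did. However, 22 of the 44 were healthy cells. Among the 15 cells without S100a6 from MI 244 and MI 255 themselves, 4 had a Fcer2a UMI, 9 an Ighd UMI, 8 a Plac8 UMI, 1 a Zbtb32 UMI and 0 a Bhlhe41 UMI. All 17 had a Plac8 UMI and 8 an Ighd UMI, against 23 and 36 of the 44. Zbtb32, a transcription factor of innate-like B cells, had a UMI in 6 of the 17 cells and 1 of the 44, and Bhlhe41, a factor of B1 cells, in 7 and 3. Cr2, a complement receptor high in marginal zone B cells, had a UMI in 1 of the 17 and 5 of the 44 cells. Cd9, another gene of marginal zone and B1 cells, had one in 9 and 15 cells, but its level was 200 against 719 CPM. The healthy cells among the 44 stood at 1058 CPM, and 1 healthy mouse reached 1868 CPM. In the 15 cells from MI 244 and MI 255, Cd9 was found in 3, at 362 CPM. In the 9 cells with 1 to 4 S100a6 UMIs, Plac8 was found in 4, Zbtb32 in 2 and Fcer2a in 3. The 17 cells were the deeper ones, with a median of 5627 UMIs against 2646.5. Cd5, a marker of B1a cells, had no UMI in any of the 70 cells.

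Markers of other stages differed. Of 6 precursor genes present in the table, 4 were in at least 10% of the 70 cells (Vpreb3, Cd93, Sox4 and Erg), and Vpreb1 and Il7r had no UMI. Cd93, Sox4 and Erg were lower than in the cells that met no leukocyte rule. Vpreb3, a partner of the immature receptor, was found in 8 of 24 healthy and 5 of 46 MI cells. It stood at 0, 341, 133 and 947 CPM in Healthy 227, 228, 239 and 240, and at 65.0, 34.2, 0 and 0 CPM in MI 244, 250, 255 and 256, so the groups overlapped. Of 7 germinal centre and cycling genes, none was in 10% of the cells. Mki67 had 2 UMIs and Bcl6 none. Ighg2b, a switched heavy chain, had 14 UMIs, all in a single cell of MI 250.

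Homing and survival genes were detected in full, with all 16 in at least 10% of the 70 cells. Ccr7, which guides lymphocytes to lymph nodes, stood at 395 CPM (268 to 560) in pooled healthy and 208 CPM (153 to 277) in pooled MI cells. Cxcr5, which guides B cells to follicles, was at 76.4 (28.03 to 166) and 106 CPM (68.0 to 158). Ltb was at 738 (561 to 954) and 819 CPM (705 to 945). The intervals overlapped for all 3, and their ranges over mice overlapped too.

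The class II genes were among the most abundant. Cd74, the invariant chain, had a UMI in all 70 cells and stood at 20306 CPM, against 9763 CPM in C1q macrophages and 417 CPM in cells that met no leukocyte rule. H2-Aa stood at 6484, 3656 and 154 CPM in these 3 kinds of cell. The beta chain gene H2-Eb1 (chr17:34305867-34316674) differed mainly between mice. Per 100 H2-Aa UMIs, the light-chain-positive cells held 40.7, 38.6 and 45 H2-Eb1 UMIs in Healthy 227, 239 and 240, and 22.1 and 25.4 in MI 250 and 256. The ratio was 4.60 in Healthy 228, 2.36 in MI 244 and 1.24 in MI 255. Among the 5 high mice the healthy values lay above the MI values, and so did Healthy 228 among the 3 low mice. This order was not tested. The same 3 mice were low in C1q macrophages, at 2.28, 1.09 and 1.16 against 32.0 to 49.6 in the other mice, and in the cells that met no leukocyte rule, at 10.5, 1.72 and 1.23 against 26.2 to 38.6. Since 2 of these 3 mice are MI mice, the pooled H2-Eb1 ratio of 0.197 in the light-chain-positive cells cannot be told apart from which mice were pooled. MI 244 and MI 255 are also the mice with high S100a6. The labels give all 8 mice the same strain, and whether the 3 mice carry the same alleles at this locus as the other 5 was not tested.

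**Figure D5:**
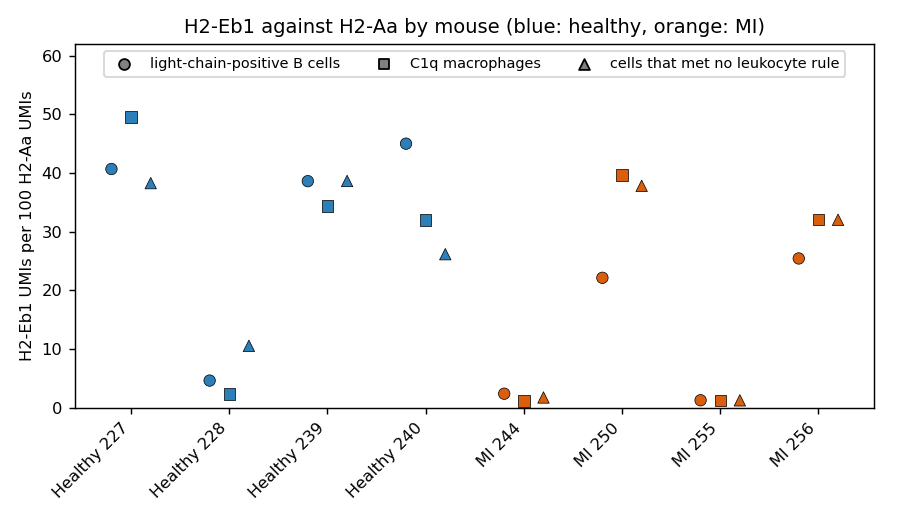
H2-Eb1 UMIs per 100 H2-Aa UMIs in each mouse in light-chain-positive B cells (circles), C1q macrophages (squares) and cells that met no leukocyte rule (triangles). Healthy 228, MI 244 and MI 255 lie at 10.5 or below in all 3 kinds of cell, and the other 5 mice at 22.1 or above.

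The gate asked for CD31, encoded by Pecam1, and for the Confetti reporter. Tamoxifen had switched this reporter on 21 days before harvest in cells that expressed Pdgfb. The gate thus did not ask for Pdgfb expression at harvest. Endothelial RNA was low in most of the 70 cells, with a median of 0.241% of UMIs on 13 endothelial genes against 3.01% in cells that met no leukocyte rule, but 11 cells had 1% or more. These 11 were also deeper, with a median of 7055 UMIs against 2960. In the 59 cells under 1%, Pecam1 stood at 161 CPM (113 to 224), which is 18.9% of the level in cells that met no leukocyte rule. The 12 other endothelial genes stood at a median of 9.48% of it (range 7.44% to 18.9%), with a median of 5.88% in healthy and 11.1% in MI cells. Pdgfb had 5 UMIs in 5 of the 59 cells, or 21.1% of that level (6.84% to 49.2%). Plvap, at the top of the range of the 12, had all of its UMIs in MI cells.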

How the data were processed

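The authors deposited 1 table of raw counts, whole numbers of UMIs on 16791 genes in 31028 cells, made with Cell Ranger on mm10 and Seurat 2.3 in R 3.5.2 per the labels, and per the study's methods without cells of few genes or a high mitochondrial share. Cells were mapped to mice by the names in the table, and 2357 copied cells were dropped. The members, gene lists (22) and thresholds were chosen with earlier results of these data known. The light-chain limit (2 UMIs), the Jchain limit (100 UMIs), the 70 light-chain-positive cells and the macrophages under 1% endothelial UMIs used for comparison were chosen after values per cell had been seen.

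For shares, an exact permutation test (two-sided, 70 splits of the mice) was run and adjusted over the 2 shares. The planned edgeR 4.0.16 test required 2 mice a group with 10 members. That was not met, so counts were pooled. The edgeR fit over all 8 mice (TMM, filterByExpr, quasi-likelihood) is an addition, tested on simulated data, with DESeq2 1.42.0 beside it. Named genes were list genes, the 20 leading genes and up to 10 pooled genes past 3-fold in each direction with at least 50 UMIs. The genes past 3-fold in both sets, the S100a6 limit and the minimum of 20 UMIs were chosen after values were seen. Ratios use CPM with 20 added for the leading genes only. Thinning drew 1000 UMIs a cell and left out 592 healthy and 0 MI cells. Coordinates are from GENCODE vM21 (GRCm38). Python 3.11.15 and scipy 1.17.1 were used. No doublet caller was run. Values of 1 gene of the lists are not reported here.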

Additional observations from a re-analysis of the deposited data

Results flagged for a closer look

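Of 68 sets of 4 mice checked, 8 held a mouse far from the other 3 (by Dixon's 95% critical value for its gap to the nearest over the whole range), where chance gives about 1 in 20. For 3 of the 8 the other mice were at 0, so that any UMI in 1 mouse gives this outcome and that rate does not apply to them. Genes of the rule were not checked. B cells made up 4.82% of leukocytes in MI 244, against 1.81% to 1.95% in the other MI mice. H2-Eb1 per 100 H2-Aa UMIs was 4.60 in Healthy 228, against 38.6 to 45 in the other healthy mice. In the light-chain-positive cells, Wdr89 was at 2469 CPM in Healthy 228, against at most 1359, and Cd72 at 341 CPM there, against at most 136. Apoe was at 1617 CPM in MI 255, against at most 840. These 3 genes, with UMIs in a single healthy mouse, were Pax5 (170 CPM) and Fcgr2b (85.1 CPM) in Healthy 228, and S100a6 (66.7 CPM) in Healthy 239. Healthy 240 had 2 and Healthy 228 had 5 of these cells, so 1 UMI moves such values.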

How the results depend on the processing

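No paired analysis was possible because the replicate numbers of the labels are not shared between the groups. The difference in the share of B cells missed the threshold in all 14 other settings but the one with no limit on C1qa and S100a8. That setting gave 0.718 points (exact p = 0.0286, and 0.0286 when adjusted over the 2 shares). It changed sign without MI 244 (-0.00621). Leaving out each mouse gave -0.00621 to 0.182 points. The share among leukocytes was lower in MI in all 13 settings (-31.6 to -16.3 points), with adjusted p from 0.0571 to 0.114, and beside the p of the other share none could fall below 0.0571. Leaving out a mouse put the raw exact p at 0.0571, the smallest possible for 4 against 3. The pooled count of genes past 3-fold was 64, moved to 29 in the light-chain-positive cells (17 shared), and ranged from 44 to 99 when 1 mouse was left out, 99 without Healthy 240. DESeq2 and the filter on low counts could not be applied to the pooled count. They were run on the edgeR fit over all 8 mice, an addition made, with its settings, after the data were seen. That fit called 20 genes, 32 with DESeq2 (18 shared), 53 with no filter (2 shared), 9 with copied cells kept, 1 without cells of 1% or more endothelial UMIs, 13 in members with at least 2 light-chain UMIs, 1 when the Jchain-high cells were also left out, and 0 to 30 when 1 mouse was left out. At an unadjusted p under 0.05 it had 72 genes. Ighd stayed under 0 and uncalled in all 14 settings of this fit. Healthy values rest on 78568 UMIs in 24 cells, so a gene at 0 there may have had a level of up to 38.2 CPM (3 UMIs).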
